A study of Mus musculus with 6 samples.

Results

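Transcripts that carried the names of more than 1 gene were examined in 6 single cells of the mouse brain. They were chosen by the gene name alone, as entries of the deposited table whose name held a comma, and there were 356 of 36659 entries (0.971%, Wilson 95% interval 0.876% to 1.08%) with 2324 of 73594 reads. Each entry, called a transcript here, is listed with 1 cell, 1 gene name and 1 unique molecular identifier (UMI), a short random tag put on each cDNA molecule before amplification. The cells were 2 vascular and leptomeningeal cells (VLMC-1, VLMC-2), fibroblast-like cells of the meninges and vessel walls, 2 immature oligodendrocytes (Oligo1-1, Oligo1-2) and 2 mature, myelinating ones (Oligo5-1, Oligo5-2). Stored cDNA was sequenced as long PacBio reads in a short and a long run. The labels give CD-1 mice, brain and an embryonic stage for all 6 cells and no treatment, name no animal, and call the VLMCs oligodendrocyte progenitors. The paper's text places the single cells in hippocampus and cortex and states no age, so the stage rests on the labels alone. Of 10 VLMC markers, 7 had transcripts in VLMC-1 (4.11% of its transcripts) and 9 in VLMC-2 (5.10%). None of the 10 oligodendrocyte markers had a transcript in either VLMC, while they made up 9.19% to 14.3% of the transcripts of the oligodendrocytes. The progenitor list had 1 of 10 genes, Pdgfra, in each VLMC, with 5 transcripts in VLMC-1 and 3 in VLMC-2. Since no source used here says that the cells of a type came from different animals, each type was counted as 1 sample and no test compared types, and intervals cover counting error only.

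Genes can share genome sequence in several ways. Neighbours on opposite strands may run into each other at their ends, so that their 3′ untranslated regions overlap (tail to tail), or may begin in overlapping sequence and point away from each other (head to head), and small genes such as those of microRNAs and small nucleolar RNAs often lie inside a larger host gene. A read-through transcript is different, since a single RNA runs from one gene into the next and carries exons of both. A read over sequence that belongs to both genes gets both names unless its strand is used. The strand can be read back from splice junctions, which belong to the introns of 1 gene, and from the polyadenylation signal, a hexamer that lies shortly before the end of most mRNAs.

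The ends of a few recurrent pairs show how the strand was read. Each line gives the last 30 bases of a deposited transcript, 5′ to 3′ on the strand given, from the GENCODE M21 transcripts (GRCm38, the same build as mm10), with the polyadenylation signal (AATAAA or ATTAAA) in capitals.
Pdia6 of Pdia6,Atp6v1c2 (chr12:17284741-17284770, plus strand): tgtaacttaaaaaAATAAAtacactctaac
Timm8b of AU019823,Timm8b (chr9:50605289-50605318, plus strand): atcacaccagttAATAAAtgtgaagtctcc
Nrd1 of Nrd1,Osbpl9 (chr4:109061120-109061149, plus strand): tagtcaAATAAActgcagtctcattggcct
Cops3 of Cops3,Gm16062 (chr11:59817797-59817826, minus strand): ATTAAAgttacctttttgtttaaccccttg
Cct8 of Cct8,Usp16 (chr16:87483331-87483360, minus strand): taAATAAAtaaacatgattttttttctgtc
Usp16 of Cct8,Usp16 (chr16:87483482-87483511, plus strand): tgcttgacacatcAATAAActgatattccc
Kdelr3 of Kdelr3,Ddx17 (chr15:79527708-79527737, plus strand): agttttaatgtAATAAAaaattcacacctt
Ddx17 of Kdelr3,Ddx17 (chr15:79527739-79527768, minus strand): ttttgtaggtataAATAAAtacttgacaat
The Pdia6 end was the same to the base in Oligo1-1, Oligo1-2 and Oligo5-1, the Timm8b end in Oligo1-1 and Oligo5-1, the Nrd1 end in Oligo1-2 and Oligo5-2, and the Cops3 end in Oligo1-2 and Oligo5-1. In Oligo1-1 the Cops3 transcript ended 56 bp before that, at chr11:59817853, with no signal in its last 40 bases. The last 4 lines belong to pairs that were read from opposite strands in different cells, as described with their values further on, and were chosen after those values were seen.

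Several properties of the deposited table bear on every count of these transcripts. Each pair had exactly 1 entry in each cell in which it occurred (356 of 356), whereas 31.9% of 8435 combinations of single gene and cell with 2 or more reads had 1 entry. Every gene-pair transcript had at least 2 reads, with a median of 5 and a highest value of 72, and the strand column held no strand for any of them. The mean was 6.53 reads for gene-pair and 1.96 for single-gene transcripts. Among transcripts of 6 or more reads, the first 8 bases of the reads differed in 81.6% of 141 gene-pair and 65.5% of 1809 single-gene transcripts, and among those of 2 reads in 24.5% of 53 and 26.8% of 6602. Of 2323 read names in gene-pair transcripts, 105 also stood in a single-gene transcript. In addition, 74 of the 356 (20.8%) had block positions that lay over 1000 bp from every gene they named, compared with 82 of 35898 single-gene transcripts. Of these 74, 57 lay on a gene whose name sorts after that of the pair and no later than the next entry of the alphabetically ordered table. Whether reads of several molecules or genes were merged into such entries was not tested. The 282 transcripts at a named gene, called placed, are therefore described on their own wherever a place on a gene is used. The within-cell comparisons of length and splicing further on use all 356.

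Gene-pair transcripts were found in all 6 cells, with Wilson 95% intervals given after each share. VLMC-1 had 29 among 2338 transcripts (1.24%, 0.865% to 1.78%) and VLMC-2 had 64 among 4689 (1.36%, 1.07% to 1.74%). Of the immature oligodendrocytes, Oligo1-1 had 112 among 11483 (0.975%, 0.811% to 1.17%) and Oligo1-2 had 34 among 6043 (0.563%, 0.403% to 0.785%). Of the mature ones, Oligo5-1 had 72 among 5895 (1.22%, 0.971% to 1.54%) and Oligo5-2 had 45 among 6211 (0.725%, 0.542% to 0.968%). The mean over cells was 1.01% ± 0.318 (SD, n = 6). Because a pair has 1 entry in a cell whatever its reads, shares of reads are given too. They were 3.27% of 7610 in VLMC-1, 4.20% of 15155 in VLMC-2, 3.65% of 20509 in Oligo1-1, 1.31% of 8328 in Oligo1-2, 3.12% of 13739 in Oligo5-1 and 1.87% of 8253 in Oligo5-2. VLMC-2 was highest by both measures, while Oligo1-1 stood above VLMC-1 and Oligo5-1 by reads and below them by entries. Oligo1-2 and Oligo5-2 were lowest by both, and these cells also had the largest shares of single-gene transcripts with 1 read (75.0% and 77.3%, against 45.8% to 60.6% in the other cells). Whether read depth sets the share was not tested. Placed transcripts made up 75.6% (Oligo5-2) to 81.9% (Oligo5-1), so that displaced positions occurred in every cell.

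**Figure D1:**
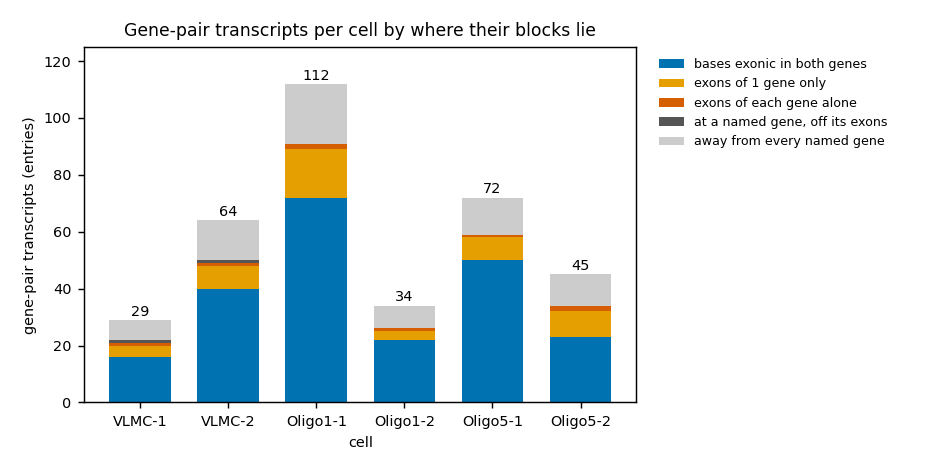
Number of gene-pair transcripts (y axis, entries) in each of the 6 cells (x axis), divided by where their aligned blocks lie. The number above a bar is the total, from 29 in VLMC-1 to 112 in Oligo1-1, and in every cell the largest class holds transcripts over bases that are exonic in both genes.

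The 356 transcripts carried 259 distinct names, or 257 when the order of the genes is ignored. There were 345 transcripts of 2 genes, 9 of 3 and 2 of more. Of 548 genes named, 512 had their symbol in GENCODE M21, 23 had a RefSeq synonym there, and 13 were not matched. Of the 250 names of 2 genes, 180 joined 2 protein-coding genes, 55 a coding and another gene, and 4 a pair of other genes, while 11 held an unmatched name.

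Most pairs were genes on opposite strands. Of the 282 placed transcripts, 249 (88.3%, Wilson 95% interval 84.0% to 91.5%) had genes on opposite strands, 21 had genes on the same strand and 12 held a gene of unknown strand. Tail-to-tail pairs were the most frequent kind, with 182 placed transcripts and 163 names, and their annotated exons overlapped by a median of 366 bp (0 to 3129). Head-to-head pairs had 32 placed transcripts and 27 names (median overlap 242 bp, 21 to 2296), and a gene contained in another on the opposite strand had 19 and 17 (median 256 bp, 24 to 1980). For 9 placed transcripts of opposite-strand genes the annotated spans did not meet at all. By cell, the share of placed transcripts on opposite strands lay between 79.4% of 34 in Oligo5-2 and 95.5% of 22 in VLMC-1.

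Most placed transcripts reached a region shared by both genes, with a small or a large part of their bases. A shared region meant at least 20 bp exonic in both genes, with under 20 bp on a second gene alone. By this rule 223 of the 282 were in a shared region. A further 49 were on exons of 1 gene only, apart from fewer than 20 shared bp. There were 8 with at least 20 bp on each gene alone, and 2 with under 20 bp of each kind. The shared part was 23 bp for Rpn2,Mroh8 in VLMC-1, with 2210 bp on Rpn2 alone. It was all 459 bp for Ahsa2,Usp34 in VLMC-1. The 213 in a shared region of opposite-strand genes were 75.5% of the placed transcripts (Wilson 95% interval 70.2% to 80.2%). For comparison, 246 of 263 placed gene-pair transcripts with matched genes (93.5%) touched exons of both genes, and 101 of 890 single-gene transcripts of the same genes (11.3%) touched an exon of the partner. The naming itself fixes this contrast, which is a description with no test. Without Oligo1-1 the number on exons of 1 gene only was 32.

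Transcripts that crossed from one gene into the other were few, and none was spliced from one into the other. The 8 transcripts with at least 20 bp on each gene alone came from 6 pairs. Of 1411 splice junctions in the 207 spliced placed transcripts, 1388 (98.4%) matched an annotated intron of a named gene within 2 bp. A junction from an exon edge of one gene to an exon edge of another was found in 0 transcripts. Of the 207, 178 were of genes on opposite strands, whose splice sites lie on different strands. For those the count was set in advance, so it bears only on the others and gives no upper bound here. Rab1,Cep68 was read in VLMC-1 and Oligo5-1 (4 reads each) as 1 unspliced block that began in Cep68, which encodes a centrosome protein, and ended at the same base, chr11:20226689, in both cells. These genes face each other tail to tail with a gap of 180 bp between their annotated ends (Rab1, a small GTPase of traffic between endoplasmic reticulum and Golgi, chr11:20201432-20226856; Cep68 chr11:20227037-20249429). The block held 168 bp on Rab1 and 573 bp (VLMC-1) or 679 bp (Oligo5-1) on Cep68, and its polyadenylation signal lay on the minus strand, that of Cep68. Snora15,Cct6a, a small nucleolar RNA gene inside the same-strand gene of a chaperonin subunit, was read in VLMC-2 (7 reads) and Oligo1-1 (9 reads) as 13 blocks of Cct6a, of which 29 bp lay on Snora15 alone. The other 4, each in 1 cell, were Pmm2,Tmem186 (Oligo1-1, 3 reads), Ppp2cb,Ubxn8 (Oligo1-2, 2 reads), Ergic2,Far2 (Oligo5-2, 2 reads) and Slain1os,Slain1 (Oligo5-2, 3 reads), all on opposite strands. Where they were spliced, the known junctions were those of Pmm2, Ergic2 and Slain1. The count depends on the annotation: it was 22 with the exons of the annotated transcript with the most exons, and 15 with a minimum of 1 bp.

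Spliced gene-pair transcripts followed the introns of a single gene. Of the 249 placed transcripts on opposite strands, 178 were spliced, and in 176 of these at least 1 junction matched an annotated intron. All 176 had junctions of 1 strand only, and 0 had junctions of both. A single RNA is spliced on 1 strand, so this count was set in advance and no upper bound is drawn. Polyadenylation signals were then counted at both ends. A signal lay in the last 40 bases of the junction strand in 139 of 169 transcripts with a window that could be read (82.2%, Wilson 95% interval 75.8% to 87.3%), and at the opposite end on the opposite strand in 0 of 151, which allows up to 1.99%. Among single-gene transcripts the same windows held a signal in 68.3% of 33615 and 2.60% of 32424. The 2 sets are unlike, since the single-gene transcripts were not limited to spliced ones. Of all single-gene transcripts, 61.1% had 1 read, and no gene-pair transcript had fewer than 2. Either hexamer counted once, and a match is a description of the letters in the window.

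In pairs of a coding and a noncoding gene, the gene so identified from junctions was the coding member. Among 169 transcripts of 2 matched genes with a strand from junctions, all 169 followed introns of a protein-coding gene. In 42 of these the partner was annotated as antisense, long intergenic or another noncoding gene, and the 42 followed the coding member. In the rest both genes were coding, so the outcome was fixed and only the 42 bear on this. The share of coding genes among all single-gene transcripts was not computed. Unspliced transcripts are not among the 169, and the 169 entries share pairs and cells. The gene identified also had single-gene transcripts in the same cell in 36 of 169 cases, and its partner in 11 of 169.

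The geometry of the pair set which end of the transcript lay in the partner. In tail-to-tail pairs the 3′ end lay in an exon of the partner in 95 of 121 transcripts (78.5%) and the 5′ end in 5. In head-to-head pairs the 5′ end did so in 22 of 31 (71.0%) and the 3′ end in 1. The aligned length was 1664 bp in 8 blocks at the median for head-to-head and 1032 bp in 4 blocks for tail-to-tail transcripts, and 0 of 32 and 60 of 182 were unspliced. The first exon of at least 1 annotated transcript was covered in 31 of 31 head-to-head transcripts with a strand, 93 of 121 tail-to-tail ones (76.9%) and 8 of 15 contained ones. No test was made of these values, since a transcript gets a head-to-head name only where it reaches the start of its gene. The 71 unspliced transcripts on opposite strands, and the 2 spliced ones without a known junction, had to be read by the signal alone. With both windows read (68 of the 73), 34 held a signal on the plus strand only, 18 on the minus strand only, 3 on both and 13 on neither.

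Most pair names were seen in a single cell. Of the 259 names, 182 occurred in 1 cell, 60 in 2, 15 in 3, 1 in 4 and 1 in 5, and none in all 6. The 77 names seen in 2 or more cells were 29.7% (Wilson 95% interval 24.5% to 35.6%), compared with 51.5% of 6357 names of single genes. Restricted to transcripts of 2 or more reads, the least a gene-pair transcript had, the share of single-gene names was 38.7% of 4292. The difference was not tested. With placed transcripts only, 58 of 212 names recurred and 10 were in 3 or more cells. Without Oligo1-1, the cell with most transcripts, 40 names recurred, and without Oligo5-1 51.

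**Figure D2:**
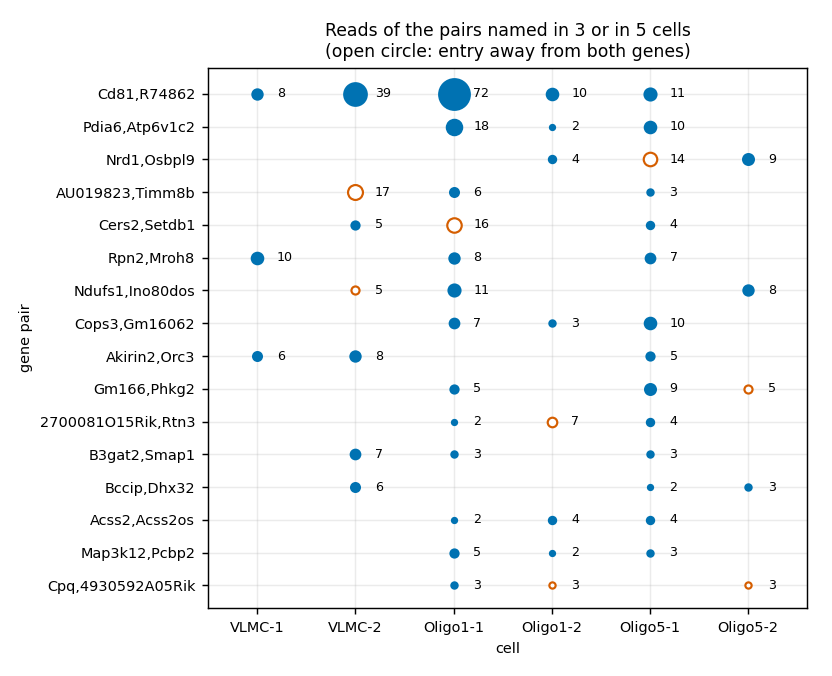
Reads per cell (x axis) of pairs (y axis) named in 3 or in 5 cells, with the number of reads beside each circle, whose area is proportional to it. Filled circles are placed transcripts and open circles lie away from both genes. Cd81,R74862 is in 5 cells with 8 to 72 reads, and all other pairs shown have at most 18 reads in a cell.

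Cd81,R74862 was the pair in the most cells. Cd81, a membrane protein of the tetraspanin family, lies at chr7:143052739-143067934 on the plus strand, and R74862 at chr7:143021784-143053686 on the minus strand, head to head with 104 bp of shared exon sequence. The pair had 8 reads in VLMC-1 and 39 in VLMC-2. In oligodendrocytes it had 72 reads in Oligo1-1, 10 in Oligo1-2 and 11 in Oligo5-1. It had no entry in Oligo5-2. Because a pair had 1 entry in each cell in which it occurred, no upper share is drawn from this. VLMC-2 and Oligo1-1 were high, and both cell types were represented. In each of the 5 cells the transcript comprised exons 1 to 8 of Cd81, began 48 or 49 bp after the annotated start of the gene and was 1470 to 1477 bp long. All 5 shared 30 exonic bases with R74862, at the downstream edge of the first exon of Cd81, printed here on the plus strand with capitals for bases exonic in both genes.
Cd81,R74862 (chr7:143053037-143053066, plus strand): CTGCTCTTCGTCTTCAATTTCGTCTTCTGG
Cd81 alone had 65 transcripts, with 34 in Oligo1-2, 20 in Oligo5-1, 7 in Oligo1-1, 2 in VLMC-1 and 1 each in VLMC-2 and Oligo5-2. The earliest began 9778 bp after the annotated start, so none reached the first exon or an exon of R74862. A transcript over exons of both genes gets the pair name, so no upper share is drawn from this. R74862 alone had no transcript in any cell. All Cd81 transcripts with the first exon thus stood under the pair name, with 1 UMI in each cell, and the first 8 bases of the reads differed in all 5. Whether those reads came from more than 1 molecule was not tested.

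**Figure D3:**
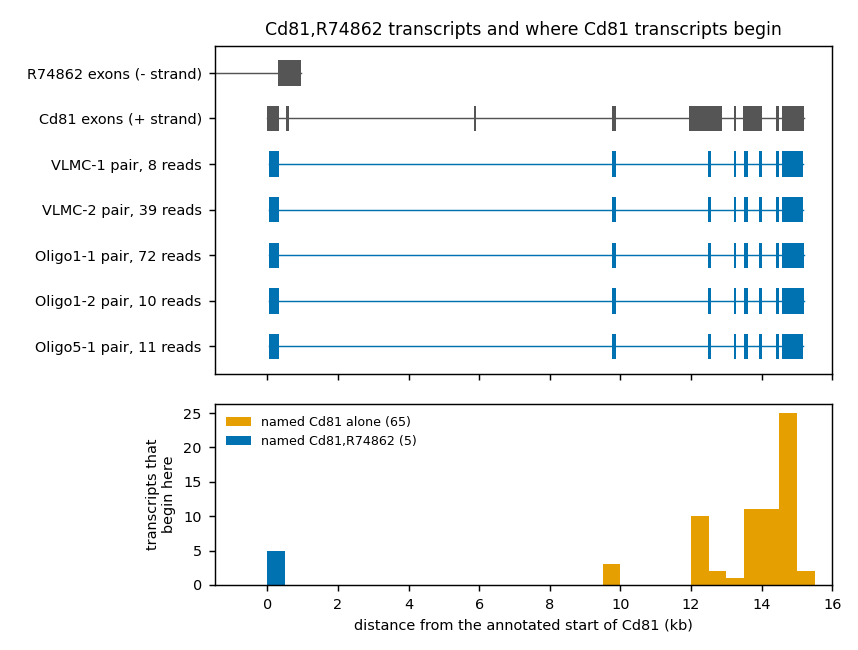
Upper panel, annotated exons of R74862 and Cd81 (grey, all transcripts combined) and the blocks of the 5 Cd81,R74862 transcripts (blue), by distance from the annotated start of Cd81 in kb. Lower panel, number of transcripts that begin in each 0.5 kb bin (y axis), named Cd81,R74862 (5, blue) or Cd81 alone (65, orange). The pair transcripts begin at the start of the gene and those of Cd81 alone over 9 kb later.

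Among the other most frequent pairs the same member was identified in each cell in which it was placed. Pdia6,Atp6v1c2, a disulfide isomerase and a subunit of the vacuolar proton pump whose exons overlap by 50 bp, had 18 reads in Oligo1-1, 2 in Oligo1-2 and 10 in Oligo5-1. All 3 followed Pdia6 to the end shown above, with 13 blocks in Oligo1-1, 2 in Oligo1-2 and 1 in Oligo5-1. Nrd1,Osbpl9, where Nrd1 encodes a metalloprotease, had 4 reads in Oligo1-2 and 9 in Oligo5-2 over exons 24 to 31 of Nrd1, and a displaced entry with 14 reads in Oligo5-1.

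AU019823,Timm8b and Cers2,Setdb1 each had a displaced entry with more reads than their placed ones. AU019823,Timm8b had 6 reads in Oligo1-1 and 3 in Oligo5-1 along Timm8b, a chaperone of mitochondrial protein import, and 17 in VLMC-2 away from both genes. Cers2,Setdb1 had 5 reads in VLMC-2 and 4 in Oligo5-1 along Cers2, the ceramide synthase for very long acyl chains that myelin lipids contain, and 16 in Oligo1-1 away from both. Setdb1, a histone methyltransferase, was followed in neither. Ndufs1,Ino80dos had 11 reads in Oligo1-1 and 8 in Oligo5-2 along Ndufs1, a subunit of respiratory complex I, with 19 blocks each, and 5 displaced reads in VLMC-2. Cops3,Gm16062 had 7 reads in Oligo1-1, 3 in Oligo1-2 and 10 in Oligo5-1 along Cops3, a subunit of the COP9 signalosome.

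Rpn2,Mroh8 and Akirin2,Orc3 differed from these in their geometry. Rpn2, a subunit of the oligosaccharyltransferase, is head to head with Mroh8, and the pair had 10 reads in VLMC-1, 8 in Oligo1-1 and 7 in Oligo5-1. All 3 had the 17 exons of Rpn2 and shared 23, 68 and 40 bp with exons of Mroh8. Akirin2, a nuclear protein, and Orc3, a subunit of the origin recognition complex, do not overlap in GENCODE M21. Their pair name had 6 reads in VLMC-1, 8 in VLMC-2 and 5 in Oligo5-1, all as a single block on Akirin2 that ended at chr4:34566906 in each cell.

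Across cells the strand and the 3′ end of a pair were mostly the same. A strand was known from junctions or, for unspliced transcripts, from a signal at 1 end only, in 2 or more cells for 45 pairs. In 40 of these the same gene was identified in each cell, and their 3′ ends lay within 10 bp of each other in 30 of 40, with a median spread of 3 bp and a highest of 1986 bp. With junctions only, the same gene was identified in 33 of 35 pairs. The spread of ends was not computed for single-gene names, so it is not shown to be particular to pairs. A strand read from the signal required a signal near the end, which selects such ends.

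The remaining 5 pairs were read from one gene in 1 cell and from its partner in another. Cct8,Usp16 had 9 reads in Oligo1-1 as 15 blocks of Cct8 (a chaperonin subunit, chr16:87483326-87495873, minus strand), and 11 reads in Oligo5-1 as 9 blocks of Usp16 (a ubiquitin protease, chr16:87454703-87483517, plus strand). Both crossed the 192 bp that the annotated exons share, by 187 and 186 bp, and had all junctions (14 and 8) on the strand of their own gene. Kdelr3,Ddx17 was read in VLMC-1 (5 reads) as 2 blocks of Kdelr3, a receptor that retrieves proteins to the endoplasmic reticulum, and in Oligo5-1 (8 reads) as 1 block with the signal of Ddx17, an RNA helicase. The ends of these transcripts, shown above, were 2 bp apart on opposite strands, at chr15:79527737 and chr15:79527739. Pomt2,Gstz1, head to head, was read in Oligo1-1 (6 reads) as 21 blocks of Pomt2, a protein mannosyltransferase, and in Oligo5-1 (5 reads) as 9 blocks of Gstz1, a glutathione transferase. Toe1,Tesk2 followed Toe1 in Oligo1-1 (5 reads, 8 blocks) and had the signal of Tesk2 in Oligo5-1 (6 reads). Rtn4,Eml6 had the signal of Rtn4, a reticulon known as an inhibitor of axon growth, in Oligo1-1 (2 reads) and that of Eml6 in Oligo1-2 (3 reads), in both as 1 unspliced block. Each rests on 1 entry per cell, and the readings of Rtn4, Eml6, Ddx17 and Tesk2 rest on the signal alone.

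**Figure D4:**
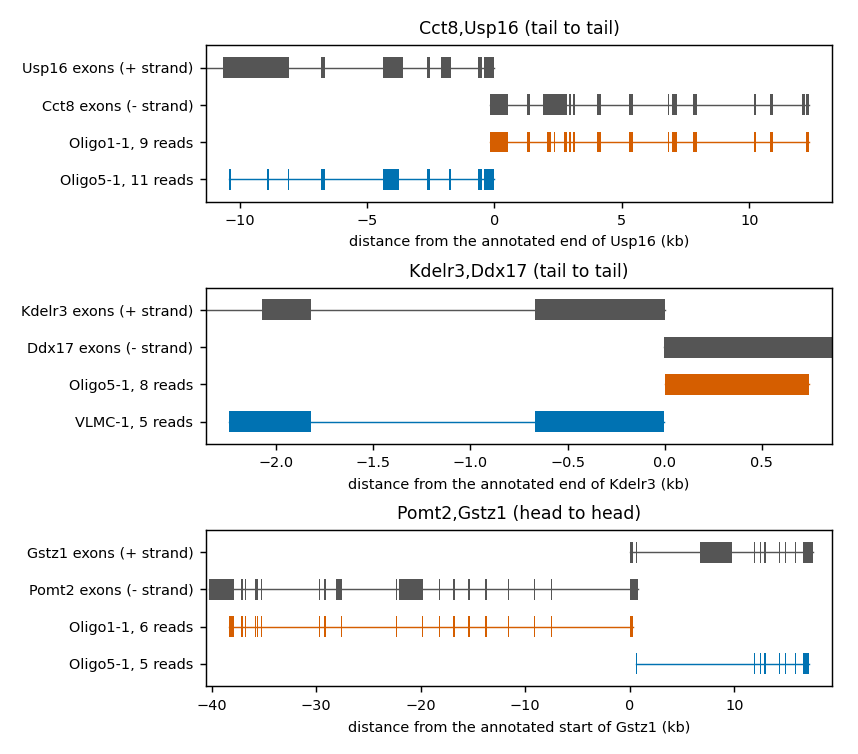
Annotated exons (grey, all transcripts of a gene combined) and transcripts of 3 pairs in 2 cells each, by distance in kb from the annotated end or start of the plus-strand gene. Blue blocks were read along the plus-strand gene and orange blocks along the minus-strand gene. Cct8,Usp16 and Kdelr3,Ddx17 meet at their ends and Pomt2,Gstz1 at their starts.

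Pairs on the same strand often named a small RNA gene. Of the 23 same-strand pairs, 12 named a microRNA or small nucleolar RNA gene, as did 11 of the 21 placed same-strand transcripts. By class, 11 of these 21 lay on exons of 1 gene only, 8 in a shared region and 2, both Snora15,Cct6a, on each gene alone. Slpi,Mir7678 was read in Oligo1-1 (4 reads) and Oligo5-2 (5 reads), and Ddx5,Mir3064 in Oligo1-1 (4 reads), each with 1 bp exonic in both genes. The other bases lay on exons of the host, except that the Slpi,Mir7678 transcript of Oligo1-1 (1182 bp, of which 1134 bp on Slpi alone) ran beyond the annotated start of Slpi. Srp54b,Srp54c, genes of the signal recognition particle on chromosome 12, lay on exons of Srp54c only in Oligo1-1 (7 reads) and Oligo1-2 (3 reads). Because these genes are near-identical copies, the assignment is uncertain.

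Some names with high reads had no strand. Xist,Tsix, the noncoding RNA of the inactive X chromosome and its antisense partner, had 53 reads in VLMC-2 and 12 in Oligo1-1, in both as the same unspliced block of 519 bp, chrX:103482700-103483218. The block lay wholly on bases exonic in both genes and held no signal at either end. Mir3074-2,Mir24-2, microRNA genes on opposite strands of one locus, had 29 reads in VLMC-2 and 4 in VLMC-1 as a block of 711 or 712 bp, of which 14 bp lay on Mir24-2 alone and 11 bp on both.

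Among names of 3 or more genes, 2 recurred. Ctsa,Neurl2,Pltp had 2 reads each in Oligo1-1 and Oligo5-2 along Ctsa, the gene of a lysosomal carboxypeptidase, with 9 and 15 blocks. Nrp,Slirp,Snw1 had 9 reads in Oligo1-1 and 2 in Oligo5-2 along Slirp, which encodes an RNA-binding protein of mitochondria, with 4 blocks each. In 1 cell each, Plod3,Znhit1,Mir702 (7 reads) and Slc25a26,Lrig1,Mir7041 (3 reads) followed Plod3 and Lrig1 in Oligo1-1, and Stub1,Jmjd8,Mir3082 (3 reads) followed Stub1 in VLMC-2. Gdf1,Upf1,Cers1 (Oligo1-1, 3 reads) and Zswim4,Mir3074-2,Mir24-2 (VLMC-2, 13 reads) were displaced. The longest names, 25 genes with 21 reads in VLMC-2 and 14 genes with 4 reads in Oligo5-2, belonged to the gamma and alpha clusters of protocadherins, adhesion molecules whose members share constant last exons. Both transcripts were 1 block, of 962 and 469 bp, wholly on bases exonic in several members.

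Gene-pair transcripts were set against single-gene transcripts within each cell by 4 measures the name does not use, with a two-sided exact sign-flip permutation test over the 6 cells, whose smallest p is 0.03125, and Benjamini-Hochberg adjustment over the 4. The share with a single read, 0% against 45.8% to 77.3%, is a description only, since no gene-pair entry in the table has fewer than 2 reads. None of the other 3 passed 0.05 after adjustment, and these p-values measure only the spread between the 6 cells. The share read at least once in the long run was higher for gene-pair transcripts in 6 of 6 cells, with 55.6% to 89.1% against 24.3% to 53.3% and a mean difference of 32.0 percentage points ± 6.20 (SD, n = 6; exact p = 0.03125, adjusted p = 0.0625, or 0.09375 over these 3 measures alone). Over transcripts of 2 or more reads this difference was 17.3 points (exact permutation test, adjusted p = 0.09375). The measure counts any read of the long run, and read number was not matched. Gene-pair transcripts had a mean of 6.53 reads against 1.96. Among those of 2 or more reads, 53 of 356 gene-pair and 6602 of 14139 single-gene transcripts had exactly 2. Whether read number sets the difference was not tested.

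Length and the spliced share were each higher for gene-pair transcripts in 5 of 6 cells and lower in the remaining cell. The median aligned length of gene-pair and single-gene transcripts was 921 and 996 bp in VLMC-1 and 1248 and 935 bp in VLMC-2. It was 1599.5 and 1105 bp in Oligo1-1, 1136 and 649 bp in Oligo1-2, 714 and 618 bp in Oligo5-1, and 1230 and 1156 bp in Oligo5-2. The mean difference was 232 bp ± 236 (SD, n = 6; exact p = 0.09375, adjusted p = 0.09375), with VLMC-1 opposite to the rest. Over transcripts with a read of the long run it was -169 bp (exact permutation test, adjusted p = 0.046875 with the single-read share in the adjustment and 0.0625 without it). The cause of this change of direction was not tested. The spliced share differed by 12.9 points ± 12.1 (SD, n = 6, exact p = 0.09375, adjusted p = 0.09375), positive in 5 of 6 cells and -3.07 in Oligo5-2. These values include the displaced gene-pair transcripts. With placed entries only, an alternative chosen after seeing the data, the differences were 263 bp and 16.2 points (exact permutation test, adjusted p = 0.0833 and 0.09375).

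**Figure D5:**
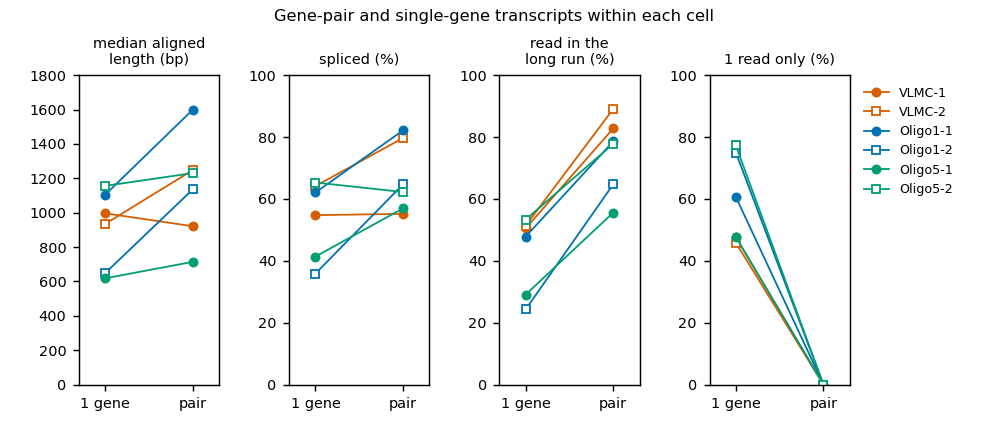
Single-gene and gene-pair transcripts of each cell joined by a line, for the median aligned length in bp, the share spliced, the share with a read of the long run and the share with 1 read (y axes; shares in %). The share in the long run is higher and that with 1 read is 0% for gene-pair transcripts in all 6 cells, and lengths cross in VLMC-1. Displaced gene-pair transcripts are included.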

How the data were processed

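Per the paper's methods, the authors kept reads with a cell barcode and a poly-A stretch, split concatemers, aligned them to mm10 with GMAP (the submitters' processing notes name GSNAP), kept unique alignments, joined blocks less than 40 bp apart, took gene names from the RefSeq isoform that had most exons, and merged all reads of a UMI. The deposited counts are reads per transcript, without normalization, beside block positions without a chromosome, so chromosomes came from the named gene in GENCODE M21. VLMCs and stages are named as in the methods. The long run was told from the movie in the read name. Exons of all annotated transcripts were used. The classes were tested on simulated data. Named were the 10 pairs with most transcripts, those in 4 or more cells, those with 2 or more read-through transcripts and all entries of 3 or more genes; any others were chosen after their values were seen, and 1 recurrent pair is counted but not reported here. Members and lists were chosen with earlier results of these data known. Alternatives were leaving out each cell, UMIs read 2 or more times, long-run reads, merging UMIs 1 substitution apart, other exons and minimums, single-gene transcripts of the same genes, log2 length and, chosen after seeing the data, placed entries only and an adjustment without the single-read share. Python 3.11.15, numpy 2.4.6, pandas 2.3.3, scipy 1.17.1 and matplotlib 3.10.9 were used.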

Additional observations from a re-analysis of the deposited data

How the results depend on the processing

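Of 139 recomputed values for the 12 results, 123 kept their direction and their side of the threshold or stayed within 1.5 times (counts) or 1 SD over cells (the share of transcripts). Some of these could not change. Every gene-pair entry has at least 2 reads and is the only one of its pair in a cell. The settings of 2 or more reads and of merged UMIs thus leave the counts of pairs and classes as they were. Placed entries only cannot change the exon classes, and another adjustment leaves the differences as they were. The 123 is therefore no measure of robustness. The share of gene-pair transcripts was 2.46% among UMIs read 2 or more times and 1.70% among transcripts with a read of the long run. With the long run only, 51 pair names recurred, the length difference was -169 bp instead of 232 bp, and the difference in single-read share was -45.0 points, which is no test, as gene-pair entries are at 0% in every cell. The length difference had an adjusted p of 0.046875 there (exact permutation test) and 0.0625 with the single-read share left out of the adjustment, an alternative chosen after seeing the data, and the cause of the reversal was not tested. Read-through transcripts numbered 22 (19 pairs) with the exons of the annotated transcript with the most exons and 15 (13 pairs) with a minimum of 1 bp, and transcripts on exons of 1 gene only numbered 83 and 27, and 81 with a minimum of 50 bp. Leaving out each cell gave 40 to 67 recurrent names and 32 to 46 transcripts on exons of 1 gene only, lowest without Oligo1-1. Placed entries only, an alternative chosen after seeing the data, gave 58 recurrent names and a length difference of 263 bp. With 5 cells the exact test cannot go below 0.0625. No paired analysis was possible because the cell types, the groups that share replicate numbers, were not compared by a test; the within-cell tests already set both kinds of transcript side by side in each cell. The number of reads per cell and the single entry per pair and cell limit what recurrence can show.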
